A study of Mus musculus with 16 samples.

Results

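The regions described here are the distal ends of mouse chromosomes 1 to 19, taken as the 100 kb windows within 5 Mb of the highest position listed in any library on each chromosome. The windows were counted back from that position, so each chromosome gave 50, or 950 of the 24599 windows on chromosomes 1 to 19. At least 1 knock-in library listed a position in 949 of the 950. The study mapped DNMT1 activity in E14TG2a mouse embryonic stem cells that carry the Dnmt1 N1580A substitution on 1 allele and received the cofactor analogue Ado-6-azide by electroporation. The groups were 3 libraries of heterozygous Dnmt1 N1580A knock-in cells, 2 libraries each from heterozygous knock-in cells after 0, 2, 4 and 8 days of priming, 3 libraries of cells with wild-type Dnmt1, and 2 further libraries labelled as a wild-type control. Day 0 cells were naive, grown in serum with LIF and the kinase inhibitors CHIR99021 and PD0325901, and priming was growth without these inhibitors. Every group received Ado-6-azide at 1 mM, and DNA was taken 3 h later. The labels do not say how the 2 wild-type groups differ or whether the knock-in line is 1 clone. Nor do they say whether replicates are different cultures; the p-values then reflect only how far the libraries spread, which may be technical.

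DNMT1 is the maintenance DNA methyltransferase. It follows the replication fork and copies CpG methylation from the parental strand to the newly made one. The N1580A substitution widens its cofactor pocket, so that the azide of the analogue marks CpGs that the enzyme has just modified. Mouse chromosomes have their centromere at one tip, and the opposite tip, where coordinates are highest, carries the distal telomere. DNA next to telomeres is often rich in genes and is normally methylated. Mouse embryonic stem cells that lack DNA methyltransferases lose this methylation and have longer telomeres.

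Each library is a list of CpG positions, each with the number of sequencing reads assigned to it. Knock-in libraries listed between 390158 positions (day 0 replicate 1) and 3423423 positions (heterozygous replicate 2). Day 0 libraries were the shallowest of these, with 390158 and 407127 positions, and day 8 libraries listed 2602884 and 3065096. Wild-type and wild-type control libraries listed 960 to 9150 positions and serve as the background. Depth therefore differed between the days; its part in the calls between days was not tested.

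Promoters give the one place where the number of CpGs present is known, since their sequence is annotated. RefSeq (GRCm38.p6, the coordinates of mm10) annotated 1769 promoters of 300 bases inside the distal windows. A CpG was listed by at least 1 knock-in library in 968 of them. The sequences below come from the protein-coding genes whose distal promoters were listed most. They are the 250 bases before the start site given by the promoter annotation, shown because they are where the label reached promoter CpGs at chromosome ends. The Tmem267 stretch lies inside the gene body tested further below, which starts at chr13:119488086. Capitals mark each CpG listed in at least 1 of the 11 knock-in libraries, and each sequence runs 5′ to 3′ on the gene's strand.
Tmem267, chr13:119488223-119488472, plus strand: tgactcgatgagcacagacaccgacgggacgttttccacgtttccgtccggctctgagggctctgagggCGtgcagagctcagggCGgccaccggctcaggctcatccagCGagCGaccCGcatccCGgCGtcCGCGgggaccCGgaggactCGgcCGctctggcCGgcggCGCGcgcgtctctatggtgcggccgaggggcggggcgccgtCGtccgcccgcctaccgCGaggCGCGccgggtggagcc
Ppp1r27, chr11:120551133-120551382, minus strand: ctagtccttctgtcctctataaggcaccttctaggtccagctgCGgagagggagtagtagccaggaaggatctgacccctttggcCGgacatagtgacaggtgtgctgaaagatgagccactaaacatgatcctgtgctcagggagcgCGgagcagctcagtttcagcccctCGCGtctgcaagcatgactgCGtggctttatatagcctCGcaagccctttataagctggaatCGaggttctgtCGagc
Ccdc172, chr19:58511735-58511984, plus strand: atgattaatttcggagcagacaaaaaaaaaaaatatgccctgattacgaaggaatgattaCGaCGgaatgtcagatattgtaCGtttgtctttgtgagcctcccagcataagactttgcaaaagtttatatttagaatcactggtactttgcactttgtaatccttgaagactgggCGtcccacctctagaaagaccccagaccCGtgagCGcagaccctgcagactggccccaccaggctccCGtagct

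The next 2 are the CpG-richest distal promoters in which no knock-in library listed a CpG. They belong to Egln1, which encodes the oxygen-sensing prolyl hydroxylase of the HIF pathway, and to Foxk2, which encodes a forkhead transcription factor.
Egln1, chr8:124949255-124949504, minus strand: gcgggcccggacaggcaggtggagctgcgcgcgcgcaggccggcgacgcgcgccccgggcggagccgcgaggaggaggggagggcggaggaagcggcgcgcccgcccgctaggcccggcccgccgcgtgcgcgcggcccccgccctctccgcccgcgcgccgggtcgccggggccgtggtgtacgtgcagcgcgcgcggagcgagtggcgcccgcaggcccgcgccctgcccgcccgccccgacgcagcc
Foxk2, chr11:121259737-121259986, plus strand: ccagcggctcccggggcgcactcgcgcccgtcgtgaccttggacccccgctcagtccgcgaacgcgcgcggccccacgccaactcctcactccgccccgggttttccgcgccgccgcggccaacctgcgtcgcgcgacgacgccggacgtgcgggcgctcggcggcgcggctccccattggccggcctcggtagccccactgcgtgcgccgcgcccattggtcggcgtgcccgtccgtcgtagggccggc

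The Egln1 stretch holds 51 CpGs and the Foxk2 stretch 48, all unlisted. The Tmem267 stretch holds 39 CpGs, of which 19 were listed by at least 1 library. Its listed CpGs numbered 2 and 3 on day 0, 1 and 3 on day 2, 5 and 1 on day 4, and 11 and 3 on day 8, and 1, 11 and 10 in the heterozygous libraries. No single CpG of it was listed by more than 6 of the 11 libraries. Of 525 distal promoters with at least 20 CpGs, 428 had none listed. The full Tmem267 promoter, with 28 of 50 CpGs listed, and the overlapping one of the noncoding gene 3110070M22Rik were far from the next, which had 11 listed. CpG-poor promoters were listed far more often than these: in promoters with 1 to 4 CpGs, 10.8% of distal CpGs were listed in an average knock-in library, against 10.1% elsewhere.

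On average, distal windows held more listed CpGs than windows elsewhere on the same chromosomes. The excess was not particular to them, since it was larger 5 to 20 Mb from the end, as given below. To compare like with like, the other windows were weighted so that each chromosome and each class of protein-coding gene coverage counted as often as among the distal windows. The heterozygous libraries listed 82.0, 171 and 134 positions per distal window, against 70.9, 148 and 114 per matched window. The day 8 libraries listed 155 and 128 per distal window, against 133 and 112 per matched window. In the shallow day 0 libraries the values were 19.55 and 19.95 per distal window, against 16.82 and 17.50 per matched window. Distal windows were thus higher in 11 of 11 knock-in libraries, with ratios between 1.14 (day 0 replicate 2) and 1.17 (heterozygous replicate 3). The mean log2 ratio was 0.21, and the exact permutation test over the 11 libraries, which swaps the 2 kinds of window within a library, gave a two-sided p of 0.000976562, the smallest it can give. The 11 libraries share the same genome and the same windows. This p therefore reflects how well the libraries agree, and does not test whether distal ends differ from other regions as a class. The same holds for the other tests below that swap windows within a library.

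Reads gave almost the same excess as positions, with ratios of 1.15 to 1.19 and a mean log2 ratio of 0.22 (exact permutation p = 0.000976562). Each listed position carried slightly more reads in distal windows: 11.8 in the first heterozygous library, against 11.7 in its matched windows, and 4.17 and 4.08 on day 8, against 4.13 and 4.06. That difference was 0.010 on the log2 scale, small but of the same sign in each library (exact permutation p = 0.000976562). Copies of 1 molecule cannot be told from separate molecules, since no molecular identifiers were used.

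**Figure D1:**
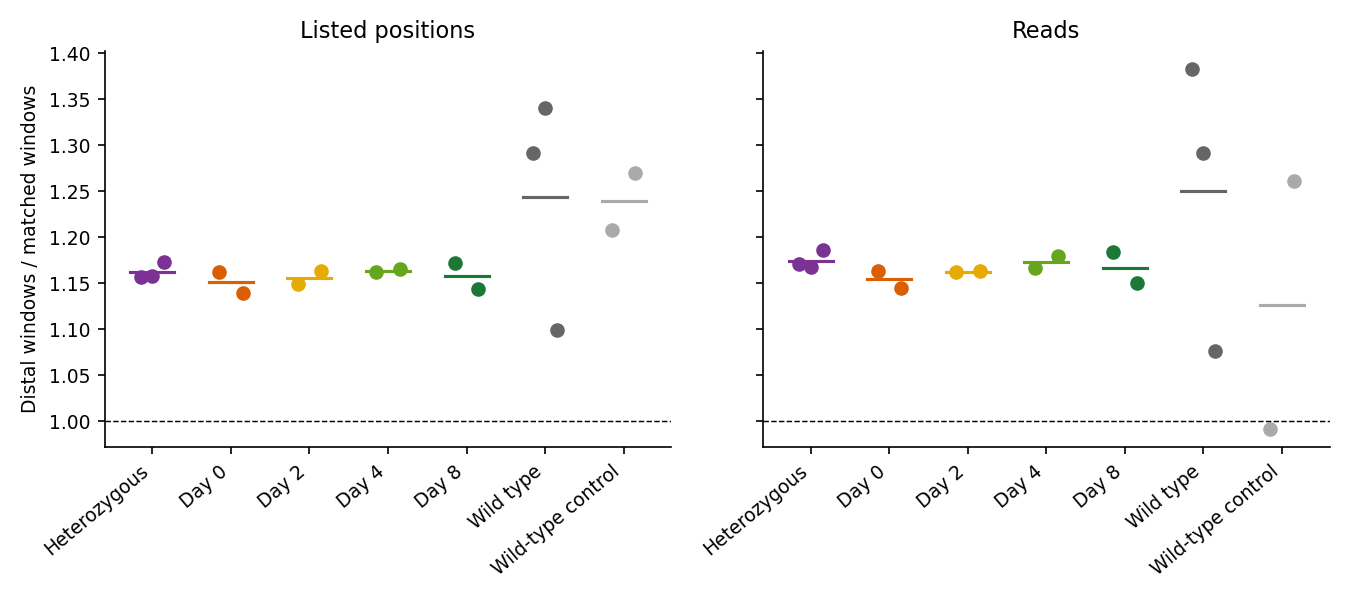
Ratio of listed positions (left) and reads (right) per window, distal over matched windows, one point per library with the group mean as a line. The 11 knock-in libraries lie between 1.14 and 1.17 for positions, and the wild-type libraries, with few positions each, spread from 1.10 to 1.34.

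Cells with wild-type Dnmt1 also had more of their few positions in distal than in matched windows. The 3 wild-type libraries listed 210, 53 and 262 distal positions and the 2 wild-type control libraries 477 and 190. Their ratios were 1.29, 1.34 and 1.10 in the wild-type libraries, and 1.21 and 1.27 in the wild-type controls. Heterozygous libraries averaged a log2 ratio of 0.22 ± 0.011, against 0.31 ± 0.15 in wild-type libraries (SD, n = 3 each), a difference of -0.09 with an exact permutation p of 0.4, where 0.1 is the smallest possible. The 8 day libraries lay below both wild-type controls, by 0.10 on the log2 scale (exact permutation p = 0.0222, the smallest possible). With 1 of the 2 controls left out the difference was -0.13 or -0.06, and p was 0.111. The ratio of positions was above 1 in all 5 libraries without the knock-in, and that of reads in 4, with 0.992 in wild-type control replicate 1.

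Gene content differed between the 2 kinds of window before matching. Distal windows were covered by protein-coding genes over 45.2% of their length on average, against 40.8% in the other windows, and were touched by 1.61 genes, against 1.26. Windows without a protein-coding gene made up 27.5% of the distal windows and 35.3% of the others. Pooled over the 11 knock-in libraries, a distal window held 568 distinct positions and another window 479; with matching the ratio of distal to other windows was 1.124. The number of CpGs in a window was not known from the sources used here, so a higher count of listed CpGs and a higher density of CpGs cannot be told apart over whole windows.

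Where CpGs could be counted, in promoters, an excess was also seen. This comparison was added after the data had been seen and matched CpGs by chromosome and by CpGs per promoter. Distal promoter CpGs were listed 1.123 ± 0.076 times as often as matched ones (SD, n = 11 libraries, range 1.02 to 1.29), higher in each library (exact permutation p of the log2 ratio, 0.000976562). Without matching, 2.15% of distal promoter CpGs were listed in an average library, against 2.07% of the others, and distal was higher in 7 of 11. The class that differed in all 11 libraries had 10 to 19 CpGs per promoter: 3.01% of its distal CpGs were listed, against 1.89% elsewhere. In promoters with 20 or more CpGs the shares were 0.191% and 0.149%, and distal was higher in 10 of 11 libraries. The distal shares of this class rest on few CpGs, and the Tmem267 stretch printed above gave part of them. It held 11 of the 42 listed in heterozygous replicate 2 and 11 of 37 in day 8 replicate 1. On day 0 it held 2 of 33 in replicate 1 and 3 of 6 in replicate 2. The full Tmem267 promoter, with 50 CpGs, may hold more of them. The class was not compared without Tmem267. The telomere repeat unit TTAGGG, searched on both strands, occurred in 180 of 1769 distal promoters (10.2%), against 10.6% of all promoters of the same length.

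The ratio changed along the end. The outermost 1 Mb held fewer listed positions than matched windows, with a ratio of 0.753 ± 0.021 (SD, n = 11 libraries) and values below 1 in 11 of 11. Within it, the first 0.5 Mb stood at 0.711 ± 0.042 and the next 0.5 Mb at 0.792 ± 0.0073. Between 1 and 2 Mb the ratio was 0.981 ± 0.036. It then climbed to 1.29 ± 0.015 at 2 to 3 Mb, 1.37 ± 0.017 at 3 to 4 Mb and 1.40 ± 0.018 at 4 to 5 Mb, above 1 in every knock-in library at each of these distances. As a test added after seeing the data, the outermost 1 Mb gave a mean log2 ratio of -0.41 and the windows between 1 and 5 Mb one of 0.33 (exact permutation p = 0.000976562 each). An end of 2.5 Mb in place of 5 Mb turned the direction, to -0.10, with the same p.

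The climb went on beyond the distal windows. The ratio reached 1.51 ± 0.042 at 5 to 7.5 Mb and 1.48 ± 0.047 at 7.5 to 10 Mb. It then declined to 1.36 ± 0.040 at 10 to 15 Mb and 1.21 ± 0.018 at 15 to 20 Mb. Farther in it was 1.15 ± 0.018 at 20 to 30 Mb and 0.970 ± 0.0084 at 30 to 50 Mb. The mean ratio of the distal 5 Mb, 1.16, was thus below that of each distance class from 5 to 20 Mb. Day 0 libraries stood apart from the rest in part of this profile. In the outermost 0.5 Mb they had the highest ratio of the 11, up to 0.804, and at 1 to 2 Mb the lowest, down to 0.904.

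**Figure D2:**
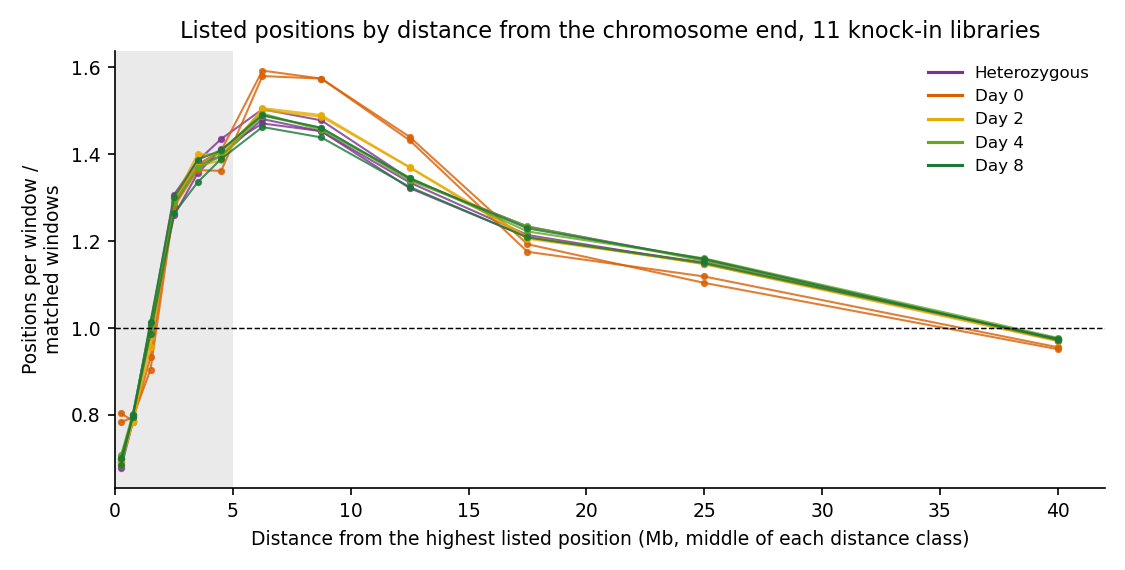
Listed positions per window relative to matched windows (vertical axis) against the distance from the highest listed position in Mb, one line per knock-in library, with the distal 5 Mb shaded. All 11 lines lie below 1 in the outermost 1 Mb, cross it near 1 to 2 Mb and peak between 5 and 10 Mb.

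Gene coverage did not follow the same course. Genes covered 35.4% of the outermost 0.5 Mb and 46.8% of the next 0.5 Mb, against 51.3% at 3 to 4 Mb and 40.1% at 4 to 5 Mb. The outermost window of each chromosome averaged between 15.0 ppm (chromosome 12, within Tmem196) and 74.7 ppm (chromosome 7), where ppm stands for positions in the window per 1000000 positions of the library on chromosomes 1 to 19. On chromosome 7 it holds Tpcn2, which encodes an endolysosomal cation channel, and the receptor genes Mrgprf and Mrgprd. The outermost window of chromosome 4, with the pheromone receptor gene Vmn2r129, averaged 17.2 ppm, and that of chromosome 10, with Vmn2r87, 31.3 ppm. The median over all distal windows was 50.3 ppm, against 36.4 for the other windows.

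**Figure D3:**
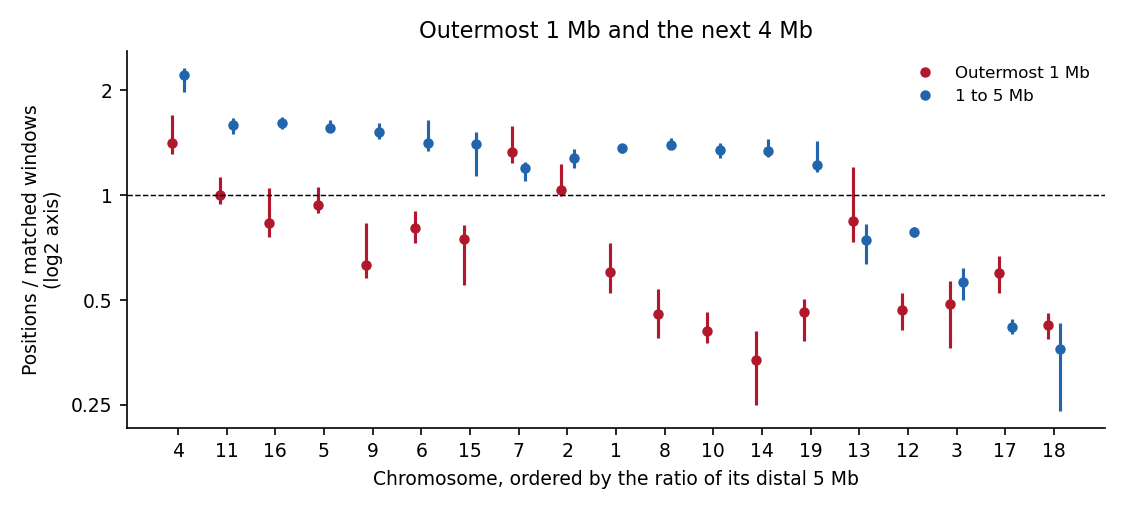
Ratio to matched windows on a log2 axis for the outermost 1 Mb and for the windows between 1 and 5 Mb of each chromosome. Points are means over the 11 knock-in libraries and bars span the lowest to the highest library; the outermost 1 Mb lies below the next 4 Mb on 15 of 19 chromosomes.

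Chromosomes differed far more than libraries did. The distal 5 Mb lay above matched windows in each of the 11 knock-in libraries on 14 chromosomes and below them in each library on the other 5, which were chromosomes 3, 12, 13, 17 and 18. The median chromosome had a ratio of 1.21. Chromosome 4 was highest at 2.03 (1.84 to 2.10 over libraries), followed by chromosome 11 at 1.48 and chromosome 16 at 1.44. Chromosome 18 was lowest at 0.375 (0.272 to 0.437), with chromosome 17 at 0.451 and chromosome 3 at 0.550. Reads placed the same number of chromosomes on each side, 14 above and 5 below. The order of the 19 chromosomes was alike between libraries, with a Spearman coefficient of 0.833 to 0.998 over 55 pairs of libraries, which share the same genome and annotation.

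Of the remaining chromosomes, 5, 9, 6 and 15 had ratios of 1.44, 1.35, 1.29 and 1.29. Chromosomes 7, 2, 1 and 8 lay close together at 1.22, 1.22, 1.21 and 1.21, within the range of their libraries. Chromosomes 10, 14 and 19 had 1.17, 1.13 and 1.08, and chromosomes 13 and 12 had 0.771 and 0.724. The outermost 1 Mb was lower than the next 4 Mb on 15 of 19 chromosomes and below matched windows on 16. On chromosome 14 the contrast was widest, at 0.336 in the outermost 1 Mb and 1.34 in the next 4 Mb. Chromosomes 7, 13, 17 and 18 were the other 4; on chromosome 7 the outermost 1 Mb had 1.33 and the next 4 Mb 1.20.

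The 5 chromosomes with low ends had the fewest genes there, with 0.30 to 0.72 protein-coding genes per distal window, against 1.16 to 3.60 on the other 14. On chromosomes 17 and 18, 35 of the 50 distal windows held no protein-coding gene, against 10 on chromosome 4. Over the 19 chromosomes the ratio, although matched for gene coverage, still ran with the number of genes per distal window (Spearman 0.684) and with gene coverage (Spearman 0.772). These coefficients describe 19 chromosomes of the same libraries and carry no test.

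**Figure D4:**
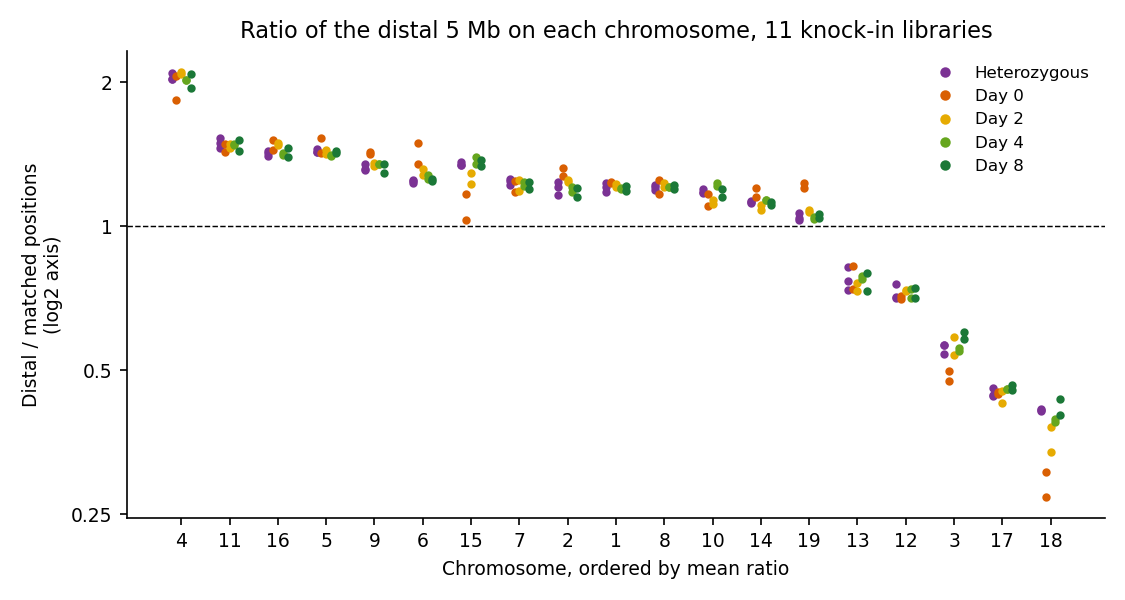
Ratio of distal to matched positions for each chromosome on a log2 axis, one point per knock-in library, coloured by group. Chromosome 4 lies near 2 and chromosomes 3, 17 and 18 lie between 0.27 and 0.60; day 0 points lie below the others on chromosome 18.

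Single windows spanned a wide range around these means. The windows with the most positions lay side by side on chromosome 4 across Chd5, Kcnab2 and Nphp4, which encode a chromatin remodeller, a potassium channel subunit and a ciliary protein. They averaged 161 ppm at chr4:152357403-152457402 (138 to 188 over libraries) and 160 in the next window (140 to 183). The third, on chromosome 10 across Stac3, Shmt2 and Lrp1 among others, averaged 155 (137 to 173). The 3 lowest windows that were listed at all averaged 2.35, 4.26 and 5.78 ppm. They overlap B020031M17Rik on chromosome 13 and the zinc finger genes Gm14322 and Gm14410 on chromosome 2. In the lowest of them, day 0 replicate 1 listed no position and no library listed more than 8.

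No shift of the distal ends as a whole with the day of priming passed the test. The ratio of positions was 1.16 and 1.14 on day 0, 1.15 and 1.16 on day 2, 1.16 and 1.17 on day 4, and 1.17 and 1.14 on day 8. Its log2 value correlated with the day at Pearson r = 0.236 (exact permutation p = 0.566) and Spearman rho = 0.439 (p = 0.3) over 8 libraries. For reads, Pearson r was 0.360 (exact permutation p = 0.377) and rho 0.488 (p = 0.247). Adjusted over the 2 measures, these p-values were 0.566 for both Pearson coefficients and 0.3 for both Spearman coefficients. With both day 8 libraries left out, which lie farthest from the median day, positions gave r = 0.558 (exact permutation p = 0.2) and reads 0.754 (p = 0.0444). With reads thinned to equal totals, r for positions was 0.314 (exact permutation p = 0.445). With ends of 10 Mb in place of 5 Mb the direction turned, to r = -0.801 (exact permutation p = 0.0218). Day 8 minus day 0 was 0.0087 on the log2 scale for positions (exact permutation p = 0.667), a test that cannot pass with 2 libraries a group.

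Within the ends, single windows were called different between days. An edgeR quasi-likelihood test on positions per window, adjusted by Benjamini-Hochberg over all windows, called 107 of 948 distal windows (11.3%) on day 8 against day 0, where 10.1% of all windows were called. Of these, 34 were higher on day 8 and 73 lower, or 3.59% and 7.70% of the distal windows, against 3.65% and 6.48% of all windows. Of the 107, 9 were called with each of the 8 libraries left out in turn; the count was 29 without day 0 replicate 2, 48 without day 0 replicate 1 and 46 with DESeq2. Reads called 67 of 949 (7.06%), 27 higher and 40 lower, against 7.49% of all windows, of which 3.73% were higher and 3.76% lower. These shares lie near the background. In the fit of positions the common biological variation (BCV) was near its floor, at 0.00988. The part of depth in the calls was not tested. The 47 windows called by both measures moved the same way in each, and are 43.9% of the calls from positions and 70.1% of those from reads. Both measures come from the same listed positions of the same libraries, so their shared direction is not independent evidence. The share of all windows called by both is not given here. The median log2 change of distal windows was 0.025 for positions, against 0.016 over all windows.

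Among called windows of at least median abundance with more positions on day 8, the largest change was at chr10:126892903-126992902, which holds Atp23 and Ctdsp2; Ctdsp2 encodes a small phosphatase of RNA polymerase II. Its share was 74.0 and 85.3 ppm on day 8, against 41.7 and 15.0 on day 0 (log2 change 1.43 ± 0.27 SE, edgeR adjusted p = 3.82e-05). The second was the Hoxc window at chr15:102943546-103043545, with 54.8 and 60.2 on day 8, against 26.1 and 15.0 on day 0 (log2 change 1.42 ± 0.31 SE, edgeR adjusted p = 0.000512). The 2 days do not overlap in either window, but this was a condition for naming a window and adds no evidence. With each library left out in turn, both calls were lost only without day 0 replicate 2. A window closer to the end of chromosome 15, with Cbx5, which encodes the heterochromatin protein HP1 alpha, had 51.1 and 46.2 on day 8, against 23.5 and 17.5 on day 0. The Atf1 window on chromosome 15 and the window of Hmgn1, a nucleosome-binding protein, on chromosome 16 completed the 5. The Cbx5, Atf1 and Hmgn1 calls were lost without either day 0 library. From positions, DESeq2 called the Atp23, Hoxc and Atf1 windows and not the Cbx5 and Hmgn1 windows. By reads, edgeR did not call the Hoxc window (edgeR adjusted p = 0.0553) and called the others.

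Among called windows of at least median abundance with fewer positions on day 8, the largest change was within Tmem267 at chr13:119520924-119620923. It held 39.8 and 41.5 ppm on day 8, against 110 and 123 on day 0 (log2 change -1.58 ± 0.19 SE, edgeR adjusted p = 5.0e-12). Its neighbour, which holds the Tmem267 promoter printed above and Paip1, a partner of the poly(A)-binding protein, had 49.5 and 47.3, against 107 and 105. On chromosome 9 the window of the chemokine receptor gene Ccr1 had 57.1 and 55.2, against 115 and 130. These 3 calls were kept with any 1 of the 8 libraries left out. The outermost windows of chromosomes 16 and 2 were the other 2, with 32.2 and 37.2 on day 8, against 86.10 and 60.02 on day 0, and with 43.5 and 42.6, against 65.2 and 108. The call on chromosome 16 was lost without day 0 replicate 1 and that on chromosome 2 without day 0 replicate 2. By reads, the log2 changes were -0.70 (first Tmem267 window), -0.88 (its neighbour), -0.72 (Ccr1), -1.26 (chromosome 16) and -0.64 (chromosome 2). Only the chromosome 2 window was not called by reads (edgeR adjusted p = 0.0840). The first Tmem267 window held 227 distinct positions, of which day 8 libraries listed 120 and 106 and day 0 libraries 42 and 49. The part of depth in its fall was not tested.

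**Figure D5:**
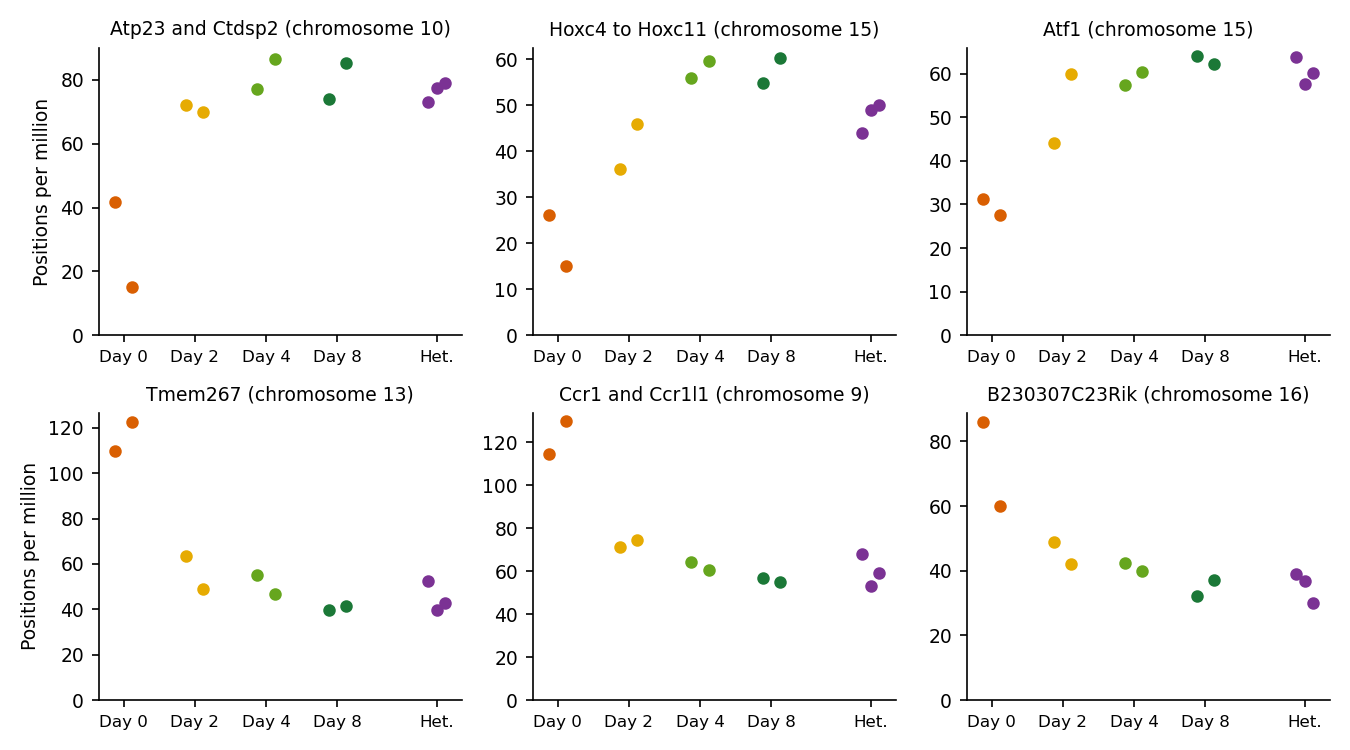
Listed positions per 1000000 positions (ppm) in 6 distal windows by day of priming, with the 3 heterozygous libraries (Het.) at the right, one point per library. The upper 3 windows are higher and the lower 3 lower on day 8 than on day 0, and the heterozygous libraries lie near day 8 in each.

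The called differences lay mainly between day 0 and the later libraries. In 104 of the 107 windows called from positions, all 3 heterozygous libraries lay nearer to the day 8 mean than to the day 0 mean; so did both day 2 libraries in 86 and both day 4 libraries in 106. The windows were chosen by their day 8 and day 0 values, so these counts describe them and test nothing. Day 8 against day 2 called 3 of 948 distal windows from positions, against 0.155% of all windows. Higher were the windows of Gli1 on chromosome 10 and Clybl on chromosome 14, against 0.112% of all windows, and lower was that of Ulk4 on chromosome 9, against 0.0438%. Each of the 3 was lost without either day 2 library, and also without day 8 replicate 1 (Gli1), day 8 replicate 2 (Clybl) or either of them (Ulk4). Reads called 0 of 949 with edgeR, against 0.00395% of all windows, and DESeq2 called 1. An unadjusted p under 0.05 was found in 28 of the 949, and the share of all windows with one was not taken.

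Reads called many of the same windows. At the Atp23 and Ctdsp2 window the share of reads was 74.3 and 87.0 per 1000000 reads on day 8, against 25.2 and 16.5 on day 0 (log2 change 1.87 ± 0.24 SE, edgeR adjusted p = 0.00775). The window of Ski, which encodes a SMAD co-repressor, and Faap20 on chromosome 4 had 105 and 105, against 47.6 and 45.9. Lower on day 8 were, among others, a gene-free window of chromosome 10, with 49.9 and 46.4 against 162 and 81.7, and the window of Exosc7 and Cdcp1 on chromosome 9, with 55.8 and 42.9 against 115 and 104. No call from reads was kept with each of the 8 libraries left out in turn: the count was 0 without either day 8 library and 313 without day 0 replicate 1.

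Genes were tested over their whole bodies. The distal windows wholly contain 1095 protein-coding and 665 lncRNA genes. On day 8 against day 0, positions called 35 of the 1055 tested (3.32%), against 5.03% of all genes, with 17 higher and 18 lower, against 2.23% and 2.80% of all genes. Of the 35, 2 were called with each of the 8 libraries left out in turn; the count was 8 without day 0 replicate 2, 11 without day 0 replicate 1 and 20 with DESeq2. Reads called 33 of 1586 (2.08%), against 2.54%, with 28 higher and 5 lower, against 1.82% and 0.717%. The shares of distal genes called lay below those of all genes in both measures. Overlapping genes share their counts, and antisense genes cannot be told apart.

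Among called genes of at least median abundance, the one with the largest rise in positions was Atf1, a CREB-family transcription factor on chromosome 15, with 88 and 57 positions on day 8 (29.2 and 22.3 ppm), against 2 and 1 on day 0 (5.218 and 2.501 ppm). Its log2 change was 2.68 ± 0.58 (SE, edgeR adjusted p = 0.000868). Neto1, an auxiliary subunit of kainate receptors on chromosome 18, had 23.2 and 22.7 ppm on day 8, against 7.827 and 2.501 on day 0. Csrnp2 and Pgs1, which encodes an enzyme of cardiolipin synthesis, rose by 1.80 and 1.37 on the log2 scale. Atf1 and Pgs1 lost their call without day 0 replicate 2, and Neto1 without either day 0 library. Csrnp2 lost it without any 1 library of day 0 or day 8. From positions, DESeq2 did not call Atf1, Neto1, Csrnp2 or Pgs1, and did call Lrrc7, described next. Lrrc7, which encodes the postsynaptic scaffold densin over 494798 bases of chromosome 3, had 108 and 96.2 ppm on day 8, against 39.1 and 47.5 on day 0 (log2 change 1.17 ± 0.22 SE, edgeR adjusted p = 3.86e-05), and kept its call with each library left out in turn.

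Tmem267 was the one with the largest fall, with 44.2 and 37.9 ppm on day 8, against 110 and 150 on day 0 (log2 change -1.72 ± 0.19 SE, edgeR adjusted p = 2.38e-16). Zfp445, whose zinc finger protein maintains methylation at imprinting control regions, had 18.3 and 14.5, against 54.79 and 30.01 (log2 change -1.41 ± 0.31 SE, edgeR adjusted p = 0.000963). Agrn, the synapse-organising proteoglycan agrin, had 43.5 and 39.5, against 91.3 and 62.5. The lncRNA gene Gm32124 fell by 0.88. Of these, Zfp445 and Agrn lost their call without day 0 replicate 1, and Gm32124 without either day 0 library. Tmem267 kept it in all 8 such fits. From positions, DESeq2 called Tmem267, Agrn and Gm32124 and did not call Zfp445. None of these genes was called from reads by edgeR. For Tmem267, Zfp445, Agrn and Gm32124 the log2 changes in reads were -0.83, -1.44, -1.17 and -0.86 (edgeR adjusted p = 0.0635, 0.0930, 0.0564 and 0.0832).

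With reads, the largest rises under the same rule were at Mtg2, a mitochondrial ribosome GTPase, at Atf1, at Mtif3, a mitochondrial translation initiation factor, at Neto1 and at Kl, the FGF23 co-receptor Klotho. Kl had 34.4 and 23.1 reads per 1000000 reads on day 8, against 9.92 and 6.67 on day 0 (log2 change 1.72 ± 0.35 SE, edgeR adjusted p = 0.0405). The 5 lower genes were Prdm15, Tpcn2, Pcnx2, Hspa12a and Ajap1, with log2 changes from -1.10 to -0.66. None of the 33 calls from reads was kept with each library left out in turn.

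Gene groups at particular ends were then read one by one. Among all distal genes tested, 186 of 1055 by positions and 349 of 1586 by reads had an unadjusted p under 0.05. The unadjusted counts of each group below are to be read beside these distal counts. DESeq2 counts of each group are to be read beside those of all distal genes, given further below. Shares over all genes are not given for either kind of count, so neither sets the distal genes apart. At the imprinted domain of chromosome 7, which holds H19, Igf2 and Kcnq1ot1, 15 genes lie inside the distal windows, and edgeR called 0 of 9 by positions and 0 of 12 by reads. Unadjusted p-values under 0.05 numbered 1 and 3, all higher on day 8, and DESeq2 called 0 and 1. The 15 genes together had 334 and 303 ppm on day 8, against 232 and 285 on day 0, with overlapping genes counted for each. Igf2, the fetal growth factor, had 12.28 and 10.56 ppm on day 8 (37 and 27 positions), against 2.609 and 2.501 ppm on day 0 (1 position each); its log2 change was 2.07 ± 0.79 (SE, edgeR adjusted p = 0.111). The median log2 change of the tested genes was 0.62 for positions, against 0.034 over all genes.

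The gene bodies of the Hoxc cluster, 9 genes that pattern the body axis, held 33.9 and 29.3 ppm on day 8, against 10.4 and 7.51 on day 0, values that rest on 102 and 75 positions, against 4 and 3. They held 20.1 and 23.3 on day 2 and 39.4 and 33.2 on day 4. By single gene, edgeR called 0 of the 2 genes tested by positions and 0 of the 8 tested by reads. Unadjusted p-values under 0.05 numbered 0 and 5, all higher on day 8, and DESeq2 called 0 and 3. Hoxc4 had 13.94 and 10.17 ppm on day 8 (42 and 26 positions), against 7.827 and 2.501 ppm on day 0 (3 and 1), with a log2 change of 1.18 ± 0.63 (SE, edgeR adjusted p = 0.319). Hoxc6 had 7.304 and 9.390 ppm on day 8 (22 and 24 positions), against 2.609 and 2.501 ppm on day 0 (1 each), with a log2 change of 1.60 ± 0.89 (SE, edgeR adjusted p = 0.323).

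Around cyclin D1 (Ccnd1) and the Fgf genes of chromosome 7, edgeR called 0 of 6 genes tested by positions and 0 of 9 by reads. Unadjusted p-values under 0.05 numbered 1 and 4, and DESeq2 called 0 and 2. The 9 genes together had 464 and 442 ppm on day 8, against 472 and 425 on day 0. Ccnd1 itself had 7.636 and 4.695 ppm on day 8 (23 and 12 positions), against 10.44 and 2.501 ppm on day 0 (4 and 1); its log2 change was -0.089 ± 0.71 (SE, edgeR adjusted p = 0.966). Among 15 signalling genes at the end of chromosome 4, Ski rose by positions and by reads (log2 changes 1.00 and 1.18) and Agrn fell by positions (-0.94), with 11 and 15 genes tested, against 5.03% and 2.54% of all genes called. There, 4 and 5 genes had an unadjusted p under 0.05, and DESeq2 called 2 and 5. At the end of chromosome 2, which holds the telomere helicase gene Rtel1, edgeR called 0 of 14 genes by positions and 0 of 16 by reads. Unadjusted p-values under 0.05 numbered 2 and 2, and DESeq2 called 0 and 3. At the end of chromosome 11, which holds the fatty acid synthase gene Fasn and the Polycomb genes Cbx2 and Cbx8, edgeR called 0 of 13 and 0 of 15. Unadjusted p-values under 0.05 numbered 2 and 2 there, and DESeq2 called 0 and 1. The 26 type II keratin genes of chromosome 15 held 261 and 247 ppm on day 8, against 287 and 275 on day 0, and edgeR called 0 of 22 by positions and 0 of 26 by reads. Unadjusted p-values under 0.05 numbered 5 and 6, and DESeq2 called 0 and 5.

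Of 25 genes at least 300 kb long inside the distal windows, 2 rose and 2 fell by positions. Lrrc7 rose by 1.17, and Itpr2, an inositol trisphosphate receptor, and Ulk4 fell by 0.32 and by 0.39. That is 4 of 25, against 5.03% of all genes. The 25 were picked by length, and no share was taken for genes of like length or like counts. By reads Lrrc7 alone of the 25 was called, higher on day 8, against 2.54% of all genes. Among the long genes, 9 and 11 had an unadjusted p under 0.05, and DESeq2 called 4 and 12. The 25 genes together held 5364 and 5228 ppm on day 8, against 5403 and 5279 on day 0. These groups were chosen with earlier results of these data known.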

How the data were processed

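Libraries were TOP-seq libraries of azide-tagged DNA from 16 samples, sequenced on an Ion Proton, per the labels' protocols. Cutadapt 4.4, BWA 0.7.17-r1188, SAMtools 1.12 and build mm10 are named, per the submitters' processing notes, without settings. For every library the authors deposited a table in which, per the file headers, each row gives a chromosome, a position and its coverage, a whole-number count of reads without normalization. Knock-in depth ran from 4202118 to 25175264 reads, so counting error was largest on day 0. Intervals cover counting error only.

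Windows of 100 kb were counted back from the highest listed position. Other windows were reweighted within 6 classes of protein-coding gene coverage per chromosome (RefSeq, GRCm38.p6). Ratios were tested over libraries by exact permutation (Python 3.11.15, numpy 2.4.6, pandas 2.3.3, scipy 1.17.1). For windows and genes, chromosome X included, edgeR 4.0.16 in R 4.3.3 (filterByExpr, TMM, quasi-likelihood test, Benjamini-Hochberg at 0.05) took the 8 libraries of the day series in 1 fit. DESeq2 1.42.0 was the alternative, beside other ends, matching, filters and single libraries left out. Fits were tested on simulated data. Common biological variation (BCV) was 0.00988 for positions, near the floor of the fit, and 0.239 for reads per window.

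Named windows were the 3 highest and 3 lowest, and up to 5 calls each way per comparison by log2 change, at or above median abundance and with separated groups. Named genes followed the same call rule or were called members of the gene groups; other members and outermost windows named were chosen after their values were seen. Promoters shown were 3 protein-coding ones picked for their listings and the 2 CpG-richest with none, chromosome 18 aside. The members and lists were chosen with earlier results of these data known. Same-numbered libraries of different days did not deviate together (correlations from -0.020 to 0.0093 over 6 day pairs), so numbers were not used as pairs. Some genes that met the naming rule are not reported here. Gaps, repeats, mappability and CpG islands were not used here.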

Additional observations from a re-analysis of the deposited data

How the results depend on the processing

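The excess of distal windows kept its direction and its exact p under 0.05 in 43 of 45 settings each for positions and for reads, among them no matching, other gene matching, 10 Mb ends, equal reads, each chromosome and each library left out. Settings that left out knock-in libraries could change neither, since every knock-in library had a ratio above 1. Leaving out chromosomes gave log2 ratios of 0.150 to 0.257 for positions. The excess reversed with ends of 2.5 Mb, at -0.101 for positions and -0.093 for reads, and in the outermost 1 Mb, at -0.41 for both. Reads per position reversed there (-0.00024, exact permutation p = 0.951) and in promoter CpGs (-0.027, p = 0.924). The outermost 1 Mb and promoter CpGs were settings chosen after seeing the data.

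The trend of positions with the day turned negative with matching by number of genes (r = -0.381), in 10 Mb ends (r = -0.801, p = 0.0218), in the outermost 1 Mb (r = -0.565), in promoter CpGs (r = -0.050), and without chromosome 15 (r = -0.374) or 18 (r = -0.044). With 1 library left out it ran from -0.095 to 0.704. The trend of reads turned negative with matching by number of genes (r = -0.300), in 10 Mb ends (r = -0.757, p = 0.0282), in the outermost 1 Mb (r = -0.336) and without chromosome 15 (r = -0.124). With 1 library left out it ran from 0.027 to 0.839, which passed without day 8 replicate 2 (exact permutation p = 0.0127). The day libraries minus the wild-type controls missed the threshold with matching by number of genes (-0.063, exact permutation p = 0.2) and without chromosome 4 (-0.037, p = 0.133); with 1 library left out it ran from -0.135 to -0.062. The cause of each reversal was not tested.

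Counts of calls moved with the tool and the libraries. On day 8 against day 0, distal windows called from positions numbered 46 with DESeq2 and 29 to 103 with 1 library left out. Windows called from reads numbered 225 with DESeq2, 0 with only the 4 libraries compared and 0 to 313 with 1 library left out. Genes called from positions numbered 20 with DESeq2, 17 with only the 4 libraries compared and 8 to 37 with 1 library left out. Genes called from reads numbered 282 with DESeq2, 0 with only the 4 libraries compared and 0 to 406 with 1 library left out. On day 8 against day 2, windows called from positions numbered 0 with DESeq2 and 0 to 3 with 1 library left out, and DESeq2 called 1 from reads. With the replicate block the trends were 0.257 and 0.390, the windows called on day 8 against day 0 numbered 105 from positions and 42 from reads, and the genes 33 and 1. The replicate block moved no other count. For the settings other than the main fit, here and above, shares over all windows and genes are not given. Their counts can therefore not be read as particular to distal ends.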

Other observations

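The innermost 1 Mb of the distal windows of chromosome 2, at chr2:177012591-178012590, holds a cluster of zinc finger genes that includes Zfp970, Zfp972, Gm14322 and Gm14410. It was picked after its values were seen. One of its 10 windows had no listed position, and the median window held 97.5 distinct positions over the 11 knock-in libraries. The 10 windows together held 72.0 and 57.9 positions per 1000000 on day 8, against 214 and 205 on day 0. They held 98.8 and 74.6 on day 2 and 71.0 and 67.9 on day 4, and 86.2, 73.2 and 75.9 in the heterozygous libraries. Of the 9 windows tested, edgeR called 6 lower on day 8 and 0 higher by positions, with log2 changes from -2.05 to -1.48, and 1 lower by reads; among all windows 6.48% were lower by positions and 3.76% by reads. The reads gave 56.3 and 44.5 per 1000000 on day 8, against 146 and 136 on day 0. How reads of similar gene copies were assigned here was not tested.

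The calls on day 8 against day 0 leaned different ways on different chromosomes. On chromosome 15, 8 of 50 distal windows were higher on day 8 and 1 was lower by positions, where 3.65% of all windows tested were higher and 6.48% lower. On chromosome 6, 1 was higher and 9 were lower, on chromosome 19 the counts were 1 and 7, and on chromosome 2 they were 0 and 8. The distal ratio of chromosome 15 lay between 1.23 and 1.40 in 9 knock-in libraries, against 1.17 and 1.03 on day 0. Whether the chromosomes differ was not tested.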
